A study of Rattus norvegicus with 20 samples.

Results

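The 7 genes described here, Areg, Ereg, Btc, Ptgs2, Tnfaip6, Has2 and Runx1, are switched on in ovarian follicles by the surge of luteinizing hormone (LH) that triggers ovulation. They were chosen by name, out of 15705 gene symbols matched to a probe of the array, and each was measured by 1 probe through the RefSeq transcript that the array files give for it. In whole rat ovaries at postnatal day 46, Runx1 was well above background on all 20 arrays, Areg and Ereg on 19 each, Tnfaip6 on 16 and Ptgs2 on 1, and Btc and Has2 on 0. None of the 4 genes that could be tested passed the test against control at any dose of the flame retardant mixture. The same held for all 23274 probes tested, of which 0 passed. Areg and Ereg varied in log2 level from animal to animal more than nearly all other probes tested, though both were dim on some arrays. Runx1 was highest in the 5 animals with the lowest Cyp17a1, as were 3.47% of all probes tested.

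LH acts on its receptor on theca and mural granulosa cells, and the resulting cyclic AMP signal makes granulosa cells produce and shed the epidermal growth factor (EGF)-like ligands amphiregulin, epiregulin and betacellulin. These ligands activate the EGF receptor of neighbouring granulosa and cumulus cells, which then make prostaglandins and a hyaluronan matrix that expands the cumulus around the oocyte. The transcription factor RUNX1 is induced in the same granulosa cells as they turn into luteal cells, and in the ovary the response is brief and falls off after ovulation.

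The arrays hold RNA of whole ovaries from female Sprague Dawley rats, 1 animal per array, each from an independent litter per the series' design text. From before mating until their litters were weaned on day 21, the dams ate either a control diet (dose 0) or 1 of 3 diets with a mixture of brominated flame retardants. These diets held 0.75 mg, 250 mg and 750 mg of it per kg, for doses of 0.06 mg, 20 mg and 60 mg per kg of body weight daily. DE-71 made up 52.1% of the mixture, BDE-209 44.2%, hexabromocyclododecane 3.3% and DE-79 0.4%, and the offspring were examined at day 46, when they were no longer on the dams' diet. There were 5 control arrays, 4 arrays at dose 0.06, 5 at 20 and 6 at 60 mg/kg/day, the labels do not give the stage of the estrous cycle, and the comparison asks whether exposure before weaning altered these genes in the later ovary.

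The ovary label was checked against marker genes: 11 of 12 listed granulosa genes had a probe and all 11 were well above background on every array. Of 9 listed oocyte genes 6 had a probe, and among these Zp1, Zp2, Zp3 and Gdf9 were well above background on every array. On each array 74.8% to 83.4% of spots were well above background, and the 75th percentile of the signal was 1158 at the lowest and 1737 at the highest. Levels are given as log2 of the signal relative to that percentile, so 0 is a probe at the 75th percentile and a step of 1 is a doubling. Levels of different probes are not compared. A summed level adds linear values over the genes of a list, so bright probes weigh most in it. Genes of neighbouring tissue varied between arrays. Their mean log2 level was -4.08 to -2.01 for 11 tested oviduct epithelium genes and -4.12 to -1.09 for 6 tested adipocyte genes. The part of such tissue in the levels of the members was not tested. In RNA of a whole ovary, fewer cells of a type and less RNA per cell cannot be told apart.

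The sequence before the start of 5 of the 7 genes was found in the RefSeq promoter table for build GRCr8 (Areg, Btc, Ptgs2, Tnfaip6 and Runx1), and Ereg and Has2 had no entry. The 3 promoters printed here are those of early LH targets in which a script found a motif of a factor known from this response. Each run is the 250 bases before the start, 5′ to 3′ on the strand of the gene, with the motif in capitals.
Areg, chr14:17265642-17265891 (minus strand): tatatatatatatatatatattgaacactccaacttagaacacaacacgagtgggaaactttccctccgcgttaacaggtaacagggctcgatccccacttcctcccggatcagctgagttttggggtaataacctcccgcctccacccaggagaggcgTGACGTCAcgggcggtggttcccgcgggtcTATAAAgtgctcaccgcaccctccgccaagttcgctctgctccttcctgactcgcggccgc
Tnfaip6, chr3:56911148-56911397 (plus strand): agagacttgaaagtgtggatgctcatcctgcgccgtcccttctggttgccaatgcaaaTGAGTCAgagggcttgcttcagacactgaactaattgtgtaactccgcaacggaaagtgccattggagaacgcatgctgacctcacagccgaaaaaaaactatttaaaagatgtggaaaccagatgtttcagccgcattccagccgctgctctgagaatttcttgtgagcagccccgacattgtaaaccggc
Ptgs2, chr13:64713813-64714062 (plus strand): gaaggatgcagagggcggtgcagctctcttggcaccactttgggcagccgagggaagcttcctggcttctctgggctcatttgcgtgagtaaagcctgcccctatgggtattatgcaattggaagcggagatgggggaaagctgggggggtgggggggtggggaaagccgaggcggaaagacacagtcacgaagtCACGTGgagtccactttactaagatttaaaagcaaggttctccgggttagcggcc
In Areg the capitals mark the cyclic AMP response element TGACGTCA, bases 91 to 84 before the start, and the TATA box TATAAA, bases 61 to 56. In Tnfaip6 they mark TGACTCA, the AP-1 element, which lies on the opposite strand at bases 192 to 186 and therefore reads TGAGTCA. In Ptgs2 they mark the E-box CACGTG at bases 55 to 50. Among 33469 promoters of the same length, searched on both strands, 1.59% held TGACGTCA, 4.05% TGACTCA, 5.59% CACGTG and 12.9% TATAAA. The RUNX core TGTGGT, held by 14.5% of promoters, was in 0 of the 5. The GC box GGGCGG, held by 30.5%, was in Areg, Btc and Ptgs2, and no match of any motif was found in Runx1. The motifs overlapped in none of these matches, and a match describes letters, not a site that is bound.

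Amphiregulin (Areg), an EGF-like ligand, was the most variable member. On the 5 control arrays its levels were -0.25, -1.86, -4.58, -3.10 and -5.94 for replicates 1 to 5. At 0.06 mg/kg/day they were -4.45, -7.03, -4.58 and -2.35 for replicates 1, 2, 3 and 5, and the lowest of these was not well above background. The levels at 20 mg/kg/day were -4.67, -3.98, -4.67, -0.65 and -5.76. Control replicate 1 and replicate 4 at 20 mg/kg/day were the 2 highest arrays, followed by control replicate 2. The 6 arrays at 60 mg/kg/day ran from -5.03 to -3.08 with a median of -4.49. Every dose group lay within the range of the controls except the single array not well above background. Among the 19 arrays well above background the highest was 51.7-fold over the lowest. The probe is printed on the array in several copies, of which 8 to 10 were used, and its spots on 1 array had a median SD of 0.12 log2, which covers spot noise and not labelling or hybridisation.

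Epiregulin (Ereg), the partner ligand with the same receptor, was low in most controls. Its control levels were -5.57, -6.32, -3.04, -6.19 and -5.78. On the arrays of 0.06 mg/kg/day they were -2.78, -6.28, -4.13 and -4.37. The 5 levels at 20 mg/kg/day were -3.44, -2.18, -3.10, -4.81 and -3.64. Control replicate 3 stood apart from the other 4 controls, and it lay above 4 of the 5 arrays at 20 mg/kg/day, so the groups overlapped. At 60 mg/kg/day the levels ran from -7.58 to -2.82 with a median of -4.12, and the lowest, replicate 1, was not well above background. The highest array was 17.7-fold over the lowest among the 19 arrays well above background. The order of arrays differed from that of Areg: control replicate 1 was first for Areg and number 15 for Ereg, and replicate 2 at 20 mg/kg/day was first for Ereg and number 7 for Areg.

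Betacellulin (Btc), the other ligand of this group, was well above background on 0 of 20 arrays. Its signals of 2.23 to 10.99 units compare with 75th percentiles of 1158 to 1737, so no level or difference is given for it.

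Prostaglandin synthase 2 (Ptgs2), the inducible enzyme that makes prostaglandins for follicle rupture and cumulus expansion, was well above background on control replicate 1 alone. Its signal there was 20.9 units, a level of -6.13, and the other 19 arrays had signals of 2.16 to 6.56 units. Control replicate 1 was also the array with the highest Areg. The immediate early genes, which rise soon after many stimuli, were highest on the same array: the mean log2 level of the 13 listed genes, all with a probe and tested, was -0.00 there and -2.17 to -1.03 on the others. Their summed level was 33.5 against 8.61 to 17.2. The array with the next highest mean, -1.03, was replicate 4 at 20 mg/kg/day, which had the next highest Areg. The part of these genes in the Areg and Ptgs2 values was not tested.

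Tnfaip6, which transfers heavy chains onto hyaluronan and so stabilises the cumulus matrix, was dim. Its control levels were -6.19, -5.55, -5.90, -5.33 and -6.52. At 0.06 mg/kg/day the levels were -5.90, -8.18, -6.95 and -6.33, of which the 2 lowest were not well above background. The 5 arrays of 20 mg/kg/day gave -6.77, -6.34, -6.12, -7.07 and -5.95, the lowest of them not well above background. The arrays at 60 mg/kg/day ran from -6.77 to -5.42 with a median of -6.11, and again the lowest was not well above background. In rising order of dose, 2 of 4, 3 of 5 and 5 of 6 lay within the range of the controls, and the levels were close to the lowest signal that was well above background on each array, -7.69 to -6.73. Among the 16 arrays well above background the highest was 2.71-fold over the lowest.

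Hyaluronan synthase 2 (Has2), which spins out the hyaluronan of that matrix, was not well above background on any of the 20 arrays, with signals of 2.74 to 9.61 units. Of the 17 genes listed for the cumulus matrix, 10 were tested. They included Adamts1, the protease that remodels the matrix at ovulation, at 0.37 to 3.37, and Cd44, a hyaluronan receptor, at -2.75 to 0.96.

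Runx1, a DNA-binding partner of Cbfb that LH induces in granulosa cells and that is also known from blood cells, was well above background on all 20 arrays. Its control levels were 0.40, 0.19, 1.24, 0.27 and 0.01. On the arrays of 0.06 mg/kg/day they were 0.92, -0.12, -0.26 and -0.06. At 20 mg/kg/day they were -0.21, 1.54, 0.05, 0.06 and 1.02. In each of these groups 1 or 2 arrays were at 0.92 or more and the rest within 0.40 of 0. The same held at 60 mg/kg/day, where the levels ran from -0.31 to 1.30 with a median of 0.01 and only replicate 5 was above 0.29. The highest array was 3.61-fold over the lowest, and 2 spots of the probe differed on 1 array by a median SD of 0.06 log2.

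**Figure D1:**
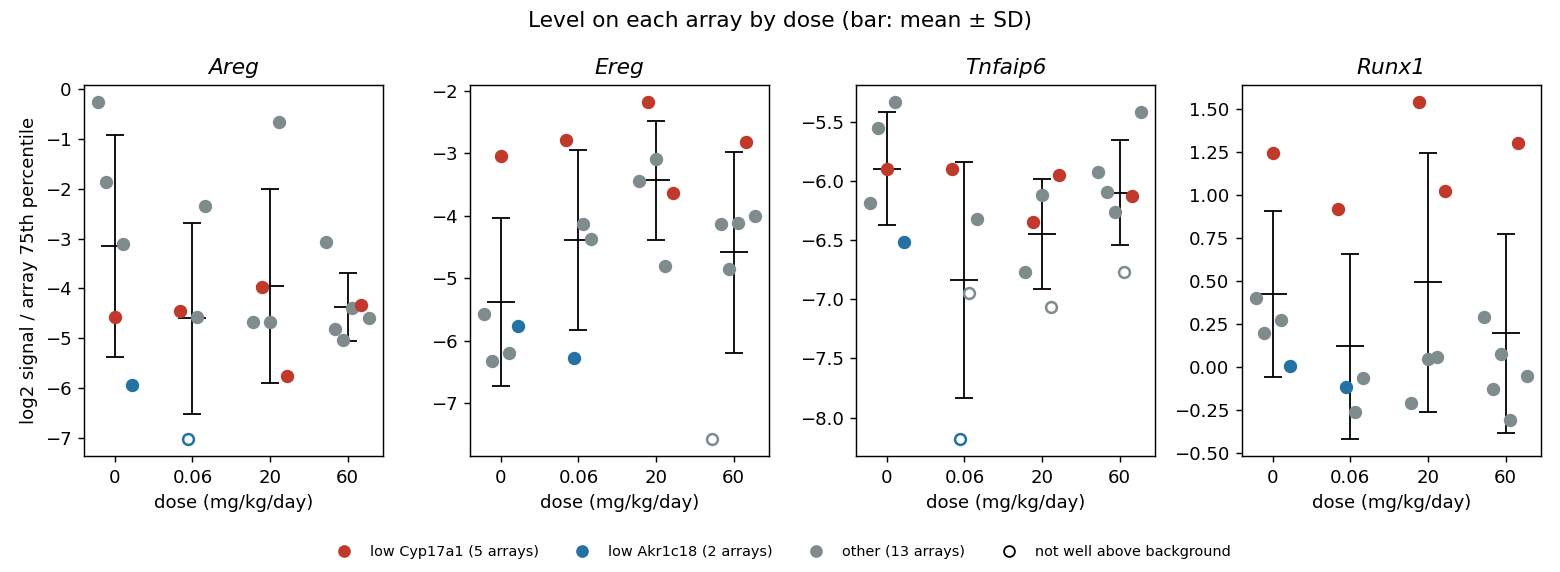
Levels of Areg, Ereg, Tnfaip6 and Runx1 (log2 relative to the 75th percentile of the array) on each of 20 arrays against dose in mg/kg/day; each point is 1 animal, bars are group mean and SD, open points were not well above background, and colours mark arrays with low Cyp17a1 or low Akr1c18. All dose groups overlap the controls, and in Runx1 the 5 red points of low Cyp17a1 lie at 0.92 to 1.54 above all others.

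Exposure was tested with limma across all 23274 probes that were well above background on at least 4 arrays. At each dose 0 of the 4 tested members, and 0 of all probes (0%), passed an adjusted p of 0.05; at an unadjusted p under 0.05 there were 711, 1066 and 1464 probes in rising order of dose. Those are 3.05%, 4.58% and 6.29% of the probes, and the members among them were 1, 1 and 0 of 4. Each dose group of each tested member overlapped the controls, whereas 0.632%, 0.602% and 0.464% of all probes had groups that did not overlap at the 3 doses.

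Areg had its highest mean in the controls, -3.15 ± 2.23 (SD, n = 5), followed by -3.95 ± 1.95 (n = 5) at 20, -4.37 ± 0.68 (n = 6) at 60 and -4.60 ± 1.91 (n = 4) at 0.06 mg/kg/day. Neighbours in this order overlapped. The difference from control was -1.45 (SE 1.097, limma adjusted p = 1.00) at 0.06, -0.80 (SE 1.03, adjusted p = 0.938) at 20 and -1.22 (SE 0.99, adjusted p = 0.830) at 60 mg/kg/day. The 95% interval at 60 mg/kg/day, -3.30 to 0.86, leaves room for a large fall as well as a rise. Control replicate 1 carried much of these differences: without it they were -0.73, -0.074 and -0.50. Leaving out each array in turn gave -2.21 to -0.65 at 0.06 (the last without replicate 2 at that dose), -1.62 to -0.074 at 20 and -1.92 to -0.50 at 60 mg/kg/day. Within slide 1 the 3 differences were -4.68, -3.61 and -2.88, within slide 2 -0.00, 0.60 and -0.01, and within slide 3 2.18, 0.83 and -0.07, so their direction differed between slides.

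Ereg had its lowest mean in the controls, -5.38 ± 1.34 (SD, n = 5), below -4.59 ± 1.61 (n = 6) at 60, -4.39 ± 1.44 (n = 4) at 0.06 and -3.43 ± 0.95 (n = 5) at 20 mg/kg/day. The difference at 20 mg/kg/day was 1.95 (SE 0.81, 95% interval 0.24 to 3.66), with an unadjusted p of 0.0277 and a limma adjusted p of 0.929. It was 2.51, 0.87 and 2.14 within the 3 slides, each from 1 to 3 exposed arrays against 1 or 2 controls. The differences at 0.06 and 60 mg/kg/day were 0.99 (SE 0.86, adjusted p = 1.00) and 0.79 (SE 0.78, adjusted p = 0.852), and the last was 0.36 with slide as a block. Single arrays moved both: the first was 0.45 without replicate 1 and 1.62 without replicate 2 at 0.06, and the second 0.44 without replicate 5 and 1.39 without replicate 1 at 60 mg/kg/day. Without control replicate 3 they were 1.57 and 1.38.

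Tnfaip6 ran the other way, from -5.90 ± 0.48 (SD, n = 5) in controls through -6.10 ± 0.44 (n = 6) at 60 and -6.45 ± 0.46 (n = 5) at 20 to -6.84 ± 0.99 (n = 4) at 0.06 mg/kg/day, with neighbours overlapping. The difference at 0.06 mg/kg/day was -0.94 (SE 0.38), with an unadjusted p of 0.0233 and a limma adjusted p of 1.00. It was -0.49 without replicate 2 at that dose, which was not well above background, and -1.25 to -0.80 without any other single array. With normexp background correction, which also took median spot signals and added an offset, it was -0.04, and the cause was not tested. The other differences were -0.55 (SE 0.36) at 20 and -0.20 (SE 0.34) at 60 mg/kg/day.

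Runx1 means were 0.49 ± 0.75 (SD, n = 5) at 20, 0.42 ± 0.48 (n = 5) in controls, 0.19 ± 0.58 (n = 6) at 60 and 0.12 ± 0.54 (n = 4) at 0.06 mg/kg/day. The differences from control were -0.30 (SE 0.38), 0.07 (SE 0.36) and -0.23 (SE 0.34) in rising order of dose. Leaving out each array in turn gave -0.57 to -0.10, -0.19 to 0.27 and -0.45 to -0.023. None approached the threshold in limma. A joint limma test of the 3 doses gave adjusted p-values of 0.952 for Areg, Ereg and Tnfaip6 and 0.962 for Runx1; 0 of 4 members had an unadjusted joint p under 0.05, as 3.18% of all probes did. A limma trend over the order of doses likewise had 0 of 4 members, and 5.76% of all probes, at an unadjusted p under 0.05.

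**Figure D2:**
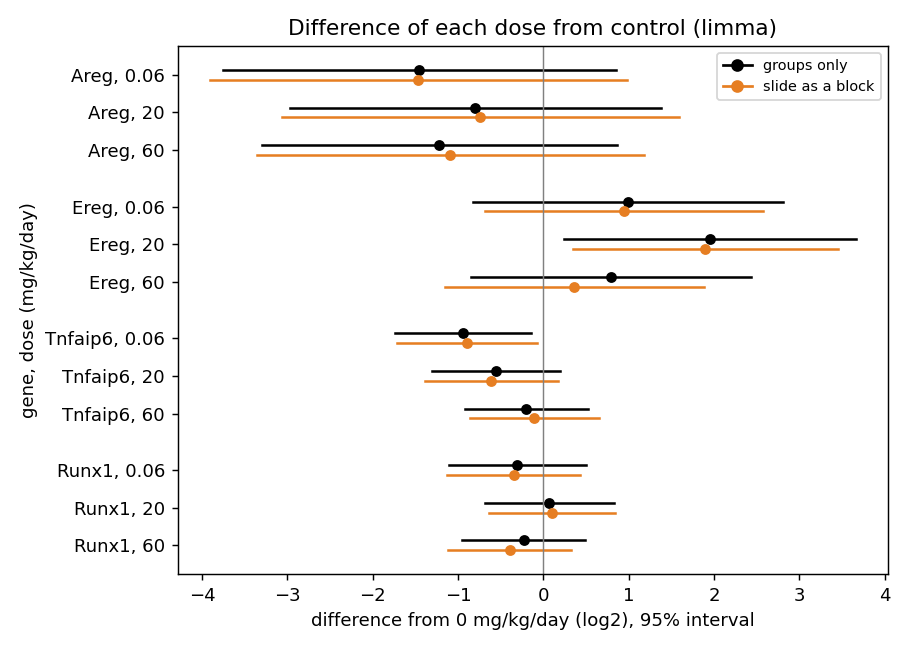
Difference of each dose from 0 mg/kg/day (log2, points) with 95% intervals for the 4 tested members, from limma on the groups alone (black) and with slide as a block (orange). Only Ereg at 20 mg/kg/day (1.95, interval 0.24 to 3.66) and Tnfaip6 at 0.06 mg/kg/day (-0.94) have intervals that leave out 0, and neither passed after adjustment over all probes.

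The arrays also differed in the state of the ovary, which was described through 3 genes. Cyp17a1, the theca enzyme that makes androgen, was at -3.52 to -2.62 on 5 arrays and at 1.71 to 3.86 on the other 15, a gap of 4.32 in which no array fell. Akr1c18, the enzyme that inactivates progesterone in luteal cells, was at -4.23 and -2.48 on 2 arrays and at 5.28 to 7.05 on the other 18. These levels are of the brighter of its 2 probes, read from 1 spot per array. The other probe was at -3.86 or less on the same 2 arrays and at 4.28 or more on the other 18. The 5 arrays of low Cyp17a1 were control replicate 3, replicate 1 at 0.06, replicates 2 and 5 at 20 and replicate 5 at 60 mg/kg/day. The 2 arrays of low Akr1c18 were control replicate 5 and replicate 2 at 0.06 mg/kg/day, and no array was in both sets. Lhcgr, the LH receptor itself, was at -3.63 to -3.01 on the 5 arrays and at -1.69 or more on the others, and was highest, at 1.32 and 2.10, on the 2 arrays of low Akr1c18. These sets were read from the arrays, not from labels, so the members are described across them with no test.

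Runx1 was at 0.92 to 1.54 on the 5 arrays of low Cyp17a1 and at -0.31 to 0.40 on the other 15. The sets did not overlap, with a gap of 0.52, and the gap was 0.43 to 0.55 under the 4 other ways of scaling the values. It was the only 1 of the 4 tested members of which this was true; 3.47% of all probes lay above on all 5 arrays and 1.5% below. Those 5 arrays came from every dose and from all 3 slides. Leukocyte genes, of which 15 of 17 listed were tested, had a summed level of 21.0 to 38.1 on the 5 arrays and 14.1 to 32.3 on the others. Their mean log2 level was -2.08 to -1.43 against -2.34 to -1.36. The pan-leukocyte gene Ptprc was at -2.17 to -1.33 against -2.49 to -1.41, so the ranges overlapped. Their part in the Runx1 level was not tested.

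Ereg was also high on these arrays, at -3.64 to -2.18 with a median of -2.82, against -7.58 to -3.10 with a median of -4.81 on the other 15. The ranges overlapped, since replicates 1 and 3 at 20 mg/kg/day reached -3.44 and -3.10 with Cyp17a1 at 2.84 and 3.30. Areg was unremarkable there, at -5.76 to -3.98 against -7.03 to -0.25. Tnfaip6 was in a narrow band of -6.34 to -5.90 on the 5 arrays, well above background on each, and at -8.18 to -5.33 on the others.

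On the 2 arrays of low Akr1c18, Areg was at -5.94 and -7.03, below all other 18 arrays, whose lowest was -5.76. The gap of 0.19 between the sets was 0.05 to 0.19 under the other scalings, and 1 of the 2 values was not well above background. It was 1 of 4 tested members below on both arrays, where 4.93% of all probes lay below and 5.76% above. Ereg was at -5.78 and -6.28, Tnfaip6 at -6.52 and -8.18 and Runx1 at 0.01 and -0.12, all within the range of the other arrays except the Tnfaip6 value of -8.18, which was not well above background.

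**Figure D3:**
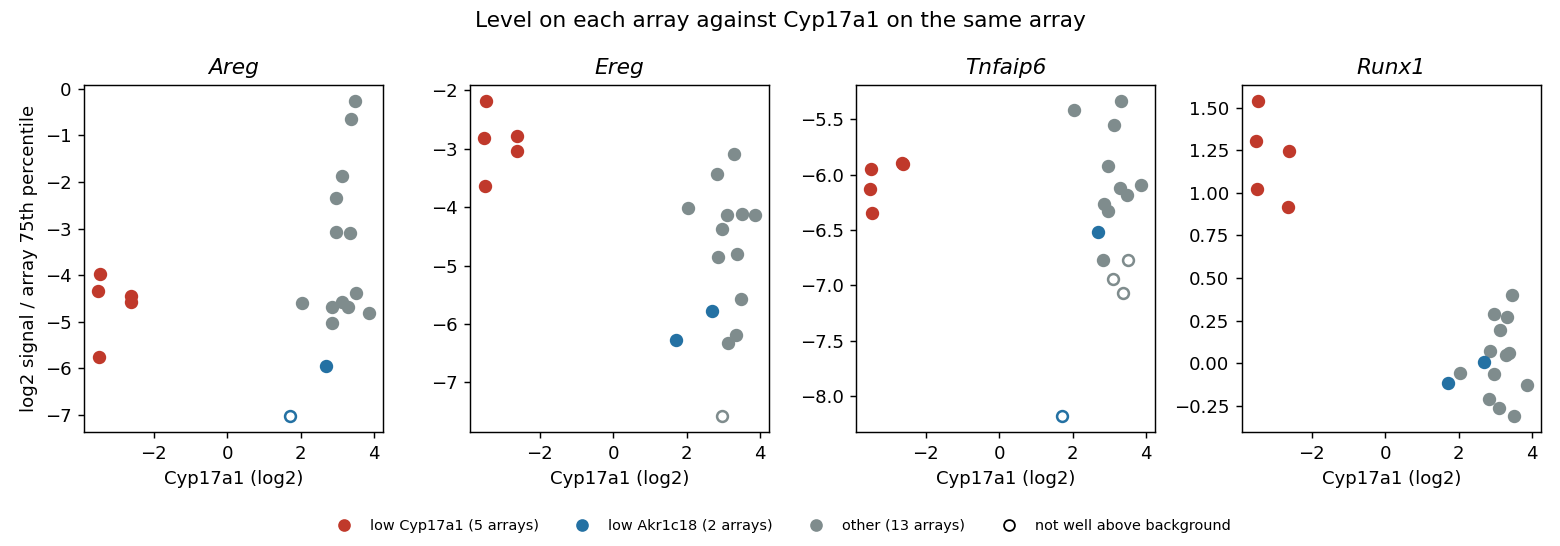
Level of Areg, Ereg, Tnfaip6 and Runx1 on each of 20 arrays (vertical axis, log2 relative to the 75th percentile) against Cyp17a1 on the same array (horizontal axis, same scale); colours and open points mark low Cyp17a1, low Akr1c18 and values not well above background. The arrays fall into 5 and 15 along Cyp17a1, and only Runx1 separates them without overlap.

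Within the sets the members followed the markers loosely or not at all. Because the markers split the arrays, 8 relations were computed within the larger set of each, by permutation of 100000 orders. Each set was cut by 1 marker only. The 15 arrays still held the 2 of low Akr1c18, and the 18 held the 5 of low Cyp17a1, so neither set was of 1 ovarian state. Areg rose with Cyp17a1 over the 15 arrays with r = 0.52 (two-sided permutation p = 0.0454, adjusted p = 0.363) and rho = 0.50 (p = 0.0598, adjusted p = 0.479). Without the 2 arrays farthest from the median of Cyp17a1 r was 0.28, so much of the relation rested on those arrays. Replicate 2 at 0.06 mg/kg/day, 1 of these, was of low Akr1c18, and its Areg was not well above background. By slide r was 0.61 on slide 1 and 0.53 on slide 3, with 6 arrays each, and slide 2 held 3 arrays of this set, too few for a value. On values centred within slides r was 0.58 (permutation p = 0.0245, adjusted p = 0.196). The next 2 by size were Tnfaip6 with Cyp17a1 (r = 0.32 over 15 arrays) and Runx1 with Akr1c18 (r = 0.32 over 18 arrays), each with an adjusted permutation p of 0.627. Neither kept its direction within slides: the first was 0.82 on slide 1 and -0.37 on slide 3, and the second 0.85, -0.19 and 0.25 on the 3 slides. The remaining relations had adjusted p-values of 0.820.

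The rest of the pathway was read from lists of related genes, and 0 of the listed genes passed at any dose in limma. Of 10 genes for EGF-like ligands and the proteases that shed them, 8 were tested, with median differences of -0.02, -0.09 and -0.07 at the 3 doses. Over all probes the medians were -0.03, 0.03 and -0.04. The 8 tested of 10 EGF receptor and relay genes had medians of -0.20, -0.24 and -0.07, the 12 of 14 prostaglandin genes 0.07, -0.06 and -0.15, and the 10 of 17 matrix genes -0.28, 0.04 and -0.18. The 18 of 19 ovulatory transcription factors had medians of -0.23, -0.15 and -0.07 and the 15 of 18 ovulation effectors -0.23, -0.04 and -0.08. All 10 tested matrix genes had a negative difference at 0.06 and all 8 receptor and relay genes at 60 mg/kg/day, beside 13138 and 14048 of the 23274 probes, and in each of these lists 1 gene had an unadjusted p under 0.05. Cell type lists held more such genes. At 20 mg/kg/day 5 of 11 granulosa genes did (median -0.35, 3 higher and 8 lower), beside 4.58% of all probes. At 60 mg/kg/day 8 of 15 leukocyte genes did (median 0.49, 11 higher and 4 lower), beside 6.29%. These were the largest counts of any cell type list, and their part in the members was not tested.

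Of the 67 tested genes of the 6 pathway lists that are not members, 1 lay above and 1 below on all 5 arrays of low Cyp17a1, shares of 1.49% each beside 3.47% and 1.5% of all probes. Timp1, an inhibitor of matrix proteases, was at 5.78 to 6.14 on the 5 arrays of low Cyp17a1 and 2.26 to 4.93 on the others, without overlap. Ptx3, a protein that crosslinks the cumulus matrix, went the other way at -1.27 to -0.28 against 0.09 to 1.26. On the 2 arrays of low Akr1c18, 14 of the 67 lay below all other arrays (20.9%, beside 4.93% of all probes) and 4 above (5.97%, beside 5.76%). Among the 14, Timp1 was at 2.39 and 2.26 and Adamts1 at 0.49 and 0.37. These counts carry no test. The ligand Hbegf, which shares the EGF receptor, ran from -3.94 to -0.74 with no such split. Egfr, the receptor itself, was at 0.81 to 1.60 on 19 arrays and at -2.02 on replicate 1 at 20 mg/kg/day.

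**Figure D4:**
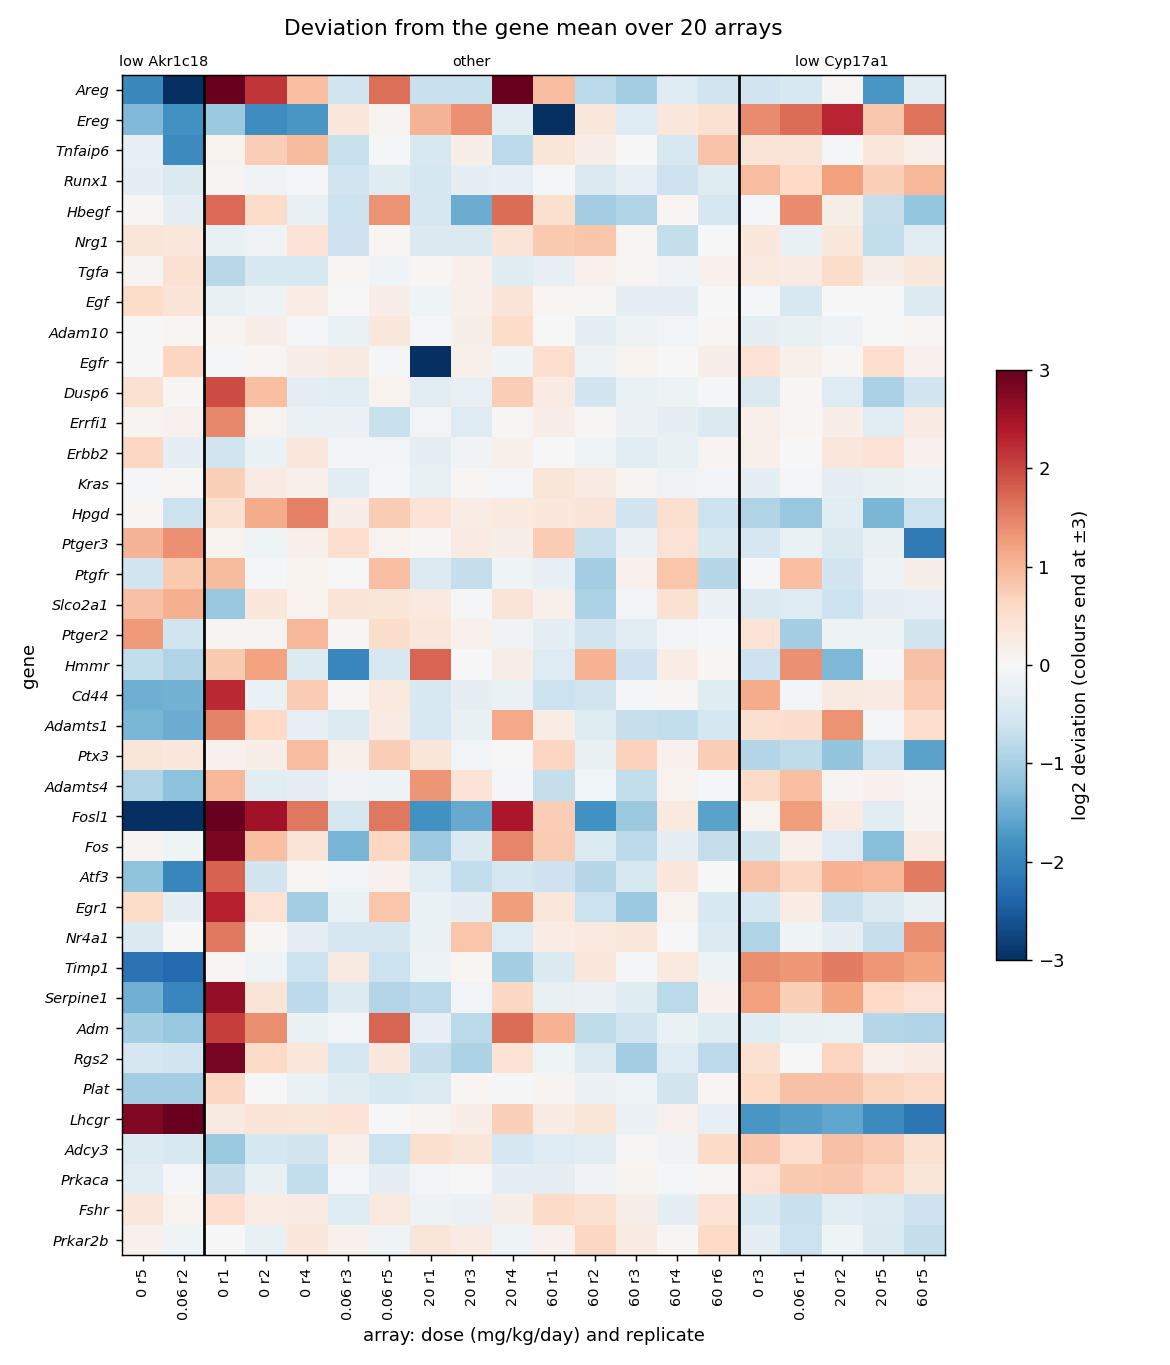
Deviation of each gene from its mean over the 20 arrays (log2, colours end at 3 in either direction) for the 4 tested members and, from each pathway list, up to 5 genes well above background on at least 10 arrays with the largest SD; columns are arrays, named by dose in mg/kg/day and replicate (r), in 3 blocks split by black lines. Runx1 and Timp1 are high in all 5 columns of low Cyp17a1 at the right, and Areg, Fosl1 and Timp1 are low in the 2 columns of low Akr1c18 at the left.

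The genes whose levels followed each member most closely over the 20 arrays, among named probes, differed from member to member. For Areg they were Cimap2 (Pearson r = 0.93), Adm, which encodes the vasodilator adrenomedullin (0.93), and Usp16, which encodes a deubiquitinase (0.92). Adm was at 3.05 on control replicate 1 and 2.65 on replicate 4 at 20 mg/kg/day, the 2 arrays of highest Areg, and at -0.05 and -0.17 on the 2 arrays of low Akr1c18. Cimap2 was well above background on 12 arrays.

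For Ereg the nearest were Slc36a2 (0.90), an amino acid transporter, Sestd1 (0.88) and Pi15 (0.87), and for Runx1 they were Penk, which encodes the enkephalin precursor (0.93), Dop1b (0.92) and Tnc, which encodes the matrix protein tenascin C (0.90). Penk was at -0.26 to 0.20 on the 5 arrays of low Cyp17a1 and at -3.20 to -2.20 on the others, and Tnc at -0.76 to 1.15 against -3.83 to -0.99. Likeness was lower for Tnfaip6, with H2az1, which encodes a histone variant, at 0.82 on one of its probes and 0.74 on the other, Pxylp1 at 0.77 and Ppp2cb at 0.72. These values describe arrays that share slides and the split by ovarian state, and they carry no test.

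**Figure D5:**
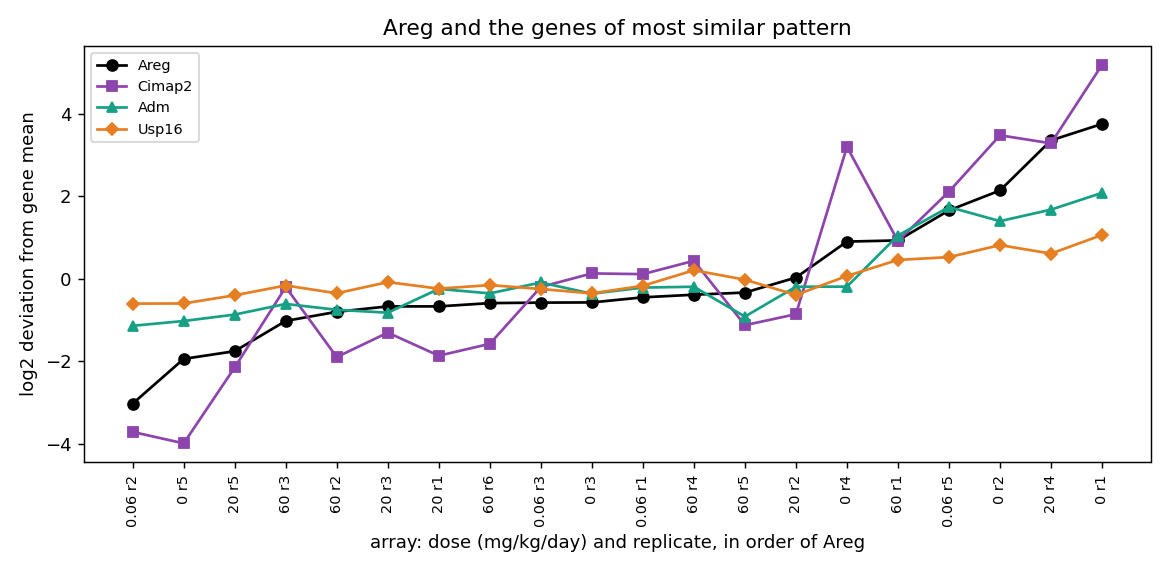
Areg, Cimap2, Adm and Usp16 on the 20 arrays, as log2 deviation from the mean of each gene (vertical axis), with arrays in rising order of Areg (horizontal axis, dose in mg/kg/day and replicate). All 4 end highest at control replicate 1, and the 2 arrays of low Akr1c18, 0.06 r2 and 0 r5, are at the left.

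Beside all probes tested, Areg and Ereg stood out for their spread: 0.473% and 0.877% of the 23274 probes had a larger SD over the 20 arrays than their 1.69 and 1.44. Tnfaip6, at 0.65, and Runx1, at 0.57, were passed by 10.9% and 14.9% of probes. This ranking takes in probes of any brightness. Areg and Ereg were dim on some arrays, with lowest signals of 9.26 and 8.60 units. Ereg was at 17.8 to 30.9 units on control replicates 1, 2, 4 and 5. The part of dim signal in the spread was not tested. The SD that remained within dose groups was 1.74 for Areg and 1.37 for Ereg, against a median of 0.28 over all probes. The intervals above rest on this SD after limma moderated it by the spread of all probes.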

How the data were processed

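RNA of 20 whole ovaries was hybridised to 1-colour Agilent rat arrays, 100 ng per sample labelled with Cy3 per the labels' protocols. The scanner software was Feature Extraction 11.5.1.1 per the file headers, and its processed signal is a linear intensity after background correction. The authors also deposited a table of log2 values; set against the scanner values, its columns had r of 0.947 to 0.991 and slopes of 0.935 to 0.992 on deviations from the probe mean, and medians of -0.07 to 0.08. Log2 scale and direction are borne out by that comparison, but what its values were centred on is unknown. How the submitters normalized it is not given in the sources used here, and replicate 4 at 0.06 mg/kg/day, which the submitters removed, was not analysed here.

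Values were log2 of the processed signal minus log2 of the 75th percentile over non-control spots. Spots marked as outliers were left out, spots of a probe averaged, and 32 probes with no spot left on some array dropped. A probe counted as well above background where this held for most of its spots, and 23274 of 30367 probes, well above background on at least 4 arrays, were tested. Of the 30367 probes 18758 had 1 gene symbol, matched by unversioned transcript to the RefSeq table of GRCr8, 0 had several and 11609 none here; the array files name an older build, so their coordinates are not printed. Akr1c18 carries the present symbol Akr1c3 in that table.

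limma 3.58.1 in R 4.3.3 fitted the 4 group means to all arrays, with Benjamini-Hochberg adjustment over all probes at 0.05. It was tested on simulated data. Permutation tests and figures used Python 3.11.15 with matplotlib 3.10.9. The number of arrays limits the precision. Slide, which was also the scan time, held all 4 groups on each of 3 slides and explained 80.6% of the first principal component (25.0% of the variance); a fit with slide as a block was therefore made too. Over 27 pairs of arrays with the same replicate number, the correlation of their deviations was -0.31 to 0.35, median 0.03, and 8 passed 0.1. Of the 27 pairs 16 also shared a slide, and pairs of different numbers were not summarised. Whether the replicate number pairs the arrays is therefore not settled, and a fit with it as a block was made too.

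The genes named are the 7 members, Cyp17a1, Akr1c18 and Lhcgr, the 3 named genes of highest Pearson r to each member detected on at least 10 arrays, and genes of the pathway and marker lists in list order or by largest SD. Timp1 and Ptx3 were named for their split on the arrays of low Cyp17a1, and Egfr is given with its 1 low array. Members and lists were chosen with earlier results of these data known. Alternatives were quantile normalization, normexp with offset 50 (on median spot signals), slide or replicate number as a block, the deposited table, no filter and leaving out arrays. The mean of all probes of a gene was not run, since each member has 1 probe.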

Additional observations from a re-analysis of the deposited data

Results flagged for a closer look

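Of 16 groups of 4 to 6 arrays, the 4 tested members at 4 doses, 4 held an array far from the rest of its group. The cut-off used marks about 1 in 20 groups of independent, normally distributed values. These groups reuse the same arrays for 4 genes, so the count cannot be set against that rate. For Areg it was replicate 1 at 60 mg/kg/day, at -3.08 with the next array at -4.34. For Ereg it was control replicate 3, at -3.04 with the next at -5.57. For Runx1 they were replicate 1 at 0.06 mg/kg/day, at 0.92 with the next at -0.06, and replicate 5 at 60 mg/kg/day, at 1.30 with the next at 0.29. The arrays of Ereg and Runx1 were 3 of the 5 with low Cyp17a1, and the Areg array was not.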

How the results depend on the processing

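In all 54 combinations of an alternative with a dose, 0 probes were called. Of 216 recomputed differences of the 4 tested members, 210 kept their direction and stayed below the threshold, with a lowest adjusted p of 0.390. The other 6 reversed small differences: Tnfaip6 at 60 mg/kg/day was 0.069 with normexp. Runx1 at 20 mg/kg/day was -0.25 without the arrays of low Cyp17a1, -0.035 without those of low Akr1c18 and -0.19 to 0.27 leaving out 1 array at a time; the cause was not tested. The relation of Ereg with Akr1c18 was r = -0.036 on slide-centred values and 0.06 otherwise. The alternatives without arrays of low Cyp17a1 or Akr1c18, and the gaps between those sets, were chosen after seeing the data. With the replicate block 0 probes were called, and 551, 1112 and 2386 had an unadjusted p under 0.05; Ereg at 20 mg/kg/day was 1.95 with the block as without, and Areg was -1.18, -0.80 and -1.18 at the 3 doses. With normexp the Ereg difference at 20 mg/kg/day was 0.94, unadjusted p 0.0196, and without control replicate 3 it was 2.53 (adjusted p 0.457). Without the filter Btc, Ptgs2 and Has2 had limma adjusted p-values of 0.360 or more. That value was also the lowest of any of the 30335 probes at 0.06 mg/kg/day in this fit. The part of dim signal in it was not tested. Dim signal limits Tnfaip6 and the low values of Areg and Ereg, and Btc, Ptgs2 and Has2 have only a bound.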
